A study of Mus musculus with 6 samples.

Results

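A set of 6 genes of the sodium pump was followed in mouse fibroblasts treated with TGFβ. They are the FXYD genes *Fxyd1*, *Fxyd5* and *Fxyd6* and the pump's β subunit genes *Atp1b1*, *Atp1b2* and *Atp1b3*, found by symbol in the deposited table of 25140 genes. All 6 were listed once and all 6 had enough counts to enter the comparison of 14334 genes. They were chosen with the effect of TGFβ in these same libraries known, so their levels and fold changes are given as a description, with no p-value.

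The libraries came from primary cardiac fibroblasts of C57BL/6 mice, taken from the adult heart and used at passage 1 after growth in DMEM with 25 mM glucose and 10% FBS. In both groups the FBS was lowered to 1% for 16 h before treatment by the sample labels. The study's methods give a longer time, and state that the FBS stayed at 1% during the treatment. After this time in low serum, 3 samples received vehicle and 3 received TGFβ at 10 ng/ml, in each case for 24 h. TGFβ is the cytokine commonly used to turn fibroblasts into contractile, matrix-secreting myofibroblasts. The methods call the libraries biological replicates without saying how many animals gave the cells, so the spread reported here is that between these cultures, and the main text of the study calls the cells embryonic fibroblasts where its methods and the labels say cardiac.

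The sodium pump, or Na,K-ATPase, uses ATP to carry sodium out of the cell and potassium in, and this gradient drives many other carriers and, through sodium-calcium exchange, bears on cell calcium. An α subunit binds ATP and the ions, a glycosylated β subunit is needed for the α subunit to fold, reach the membrane and take up potassium, and β subunits on neighbouring cells can also bind each other. FXYD proteins are small single-span membrane proteins that associate with the α and β pair and tune its affinity for ions and its turnover. The question put to the data was which β and FXYD transcripts these fibroblasts carried and how their levels differed after 24 h of TGFβ.

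The family is named for a short stretch of 4 residues beside the membrane span. The coding bases at and around it show how alike the 3 FXYD genes are there, not over their whole length. Windows of 60 coding bases are printed from the GRCm38 genome (mm10) along the principal transcripts of GENCODE M21, with the 12 bases of the FXYD stretch in capitals and the codons in frame:
Fxyd1: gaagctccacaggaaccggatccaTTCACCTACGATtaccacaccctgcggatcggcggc
Fxyd5: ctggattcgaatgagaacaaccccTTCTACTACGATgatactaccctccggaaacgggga
Fxyd6: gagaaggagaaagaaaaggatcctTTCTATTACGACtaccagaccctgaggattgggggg
The *Fxyd1* window spans chr7:31053449-31054306 on the minus strand, that of *Fxyd5* chr7:31035258-31036439 on the minus strand, and that of *Fxyd6* chr9:45390639-45390802 on the plus strand, introns included. In each gene an intron interrupts the capitals, between exons 3 and 4 of *Fxyd1* and *Fxyd6* and between exons 7 and 8 of *Fxyd5*. *Fxyd1* and *Fxyd6* share 39 of the 60 bases (65%), *Fxyd5* and *Fxyd6* share 35 (58.3%), and *Fxyd1* and *Fxyd5* share 32 (53.3%). The coding region of *Fxyd5* is the longest, with 178 codons against 92 in *Fxyd1* and 94 in *Fxyd6*. No stretch of 75 bases, the length of the reads, was shared between the longest transcript of any of the 3 and transcripts of another gene, and exons outside that transcript were not searched.

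Expression is given in CPM, counts relative to the library size after TMM scaling, on the scale of edgeR's cpm function. The libraries held between 27851677 and 31072338 counts. With an adjusted p below 0.05 in edgeR's quasi-likelihood test as the threshold, 40.7% of all genes tested were past it, 20.5% with higher and 20.1% with lower expression under TGFβ. Among the 6 genes, *Fxyd5*, *Fxyd6* and *Atp1b3* were past it with higher expression, *Fxyd1* and *Atp1b2* with lower expression, and *Atp1b1* was not. The 2 groups did not overlap in 5 of the 6 genes, all but *Atp1b1*, and in 53.3% of all genes tested. Since the genes were picked from this contrast, nothing is read from these calls of the 6 genes or from these shares. The treatment itself was checked with *Acta2* (α-smooth muscle actin), which rose from 1333 ± 144 CPM with vehicle to 2717 ± 74.0 CPM under TGFβ (SD, n = 3, adjusted p = 6.93e-05 from edgeR), and with *Postn* (periostin), for which the log2 fold change was 1.55 (adjusted p = 6.49e-05). *Pdgfra*, a growth factor receptor of fibroblasts, fell by 1.37 on the log2 scale (adjusted p = 1.77e-05). For this gene the study reports the opposite, a rise of its mRNA with TGFβ by qPCR in embryonic fibroblasts that had been given adenovirus. The cells sequenced here are cardiac by their labels. The study's assay of open chromatin, run on the same samples as the RNA, lists *Pdgfra* among myofibroblast genes with more accessible chromatin under TGFβ. The study states that such opening went with either higher or lower mRNA. Its text gives no direction for *Pdgfra* in the sequenced RNA. Because of the qPCR result, the fall of *Pdgfra* is not counted as a check of the treatment.

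**Figure D1:**
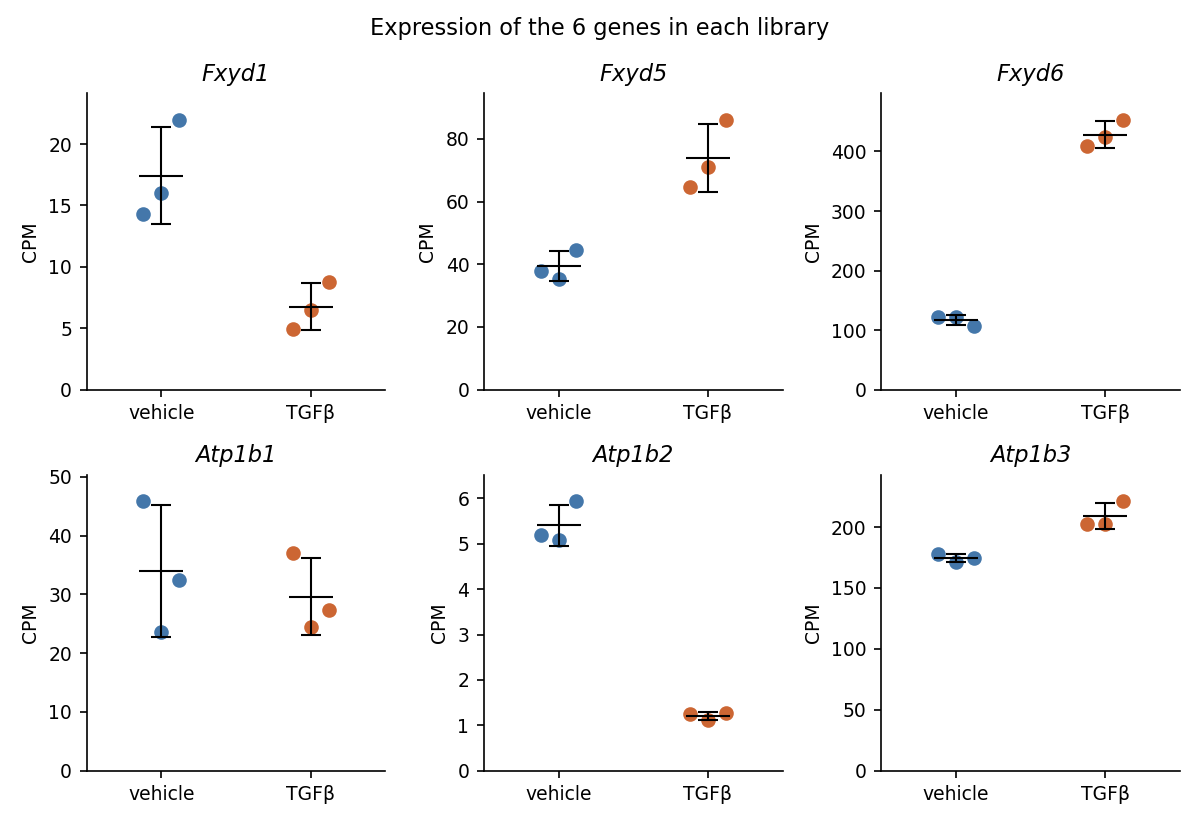
CPM of each of the 6 genes in the 3 vehicle libraries (blue) and the 3 TGFβ libraries (orange), each panel with its own axis from 0. Points are libraries in the order of the table's columns, the long bar is the mean and the whiskers are the SD, and the 2 groups are apart in every panel but that of *Atp1b1*.

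*Fxyd6* encodes phosphohippolin, an FXYD protein first described in the brain. Its expression was 121, 122 and 107 CPM in the vehicle libraries and 409, 424 and 452 CPM in the TGFβ libraries. Every TGFβ library lay far above every vehicle library, and the libraries of a group lay close to each other. The means were 117 ± 8.13 CPM with vehicle and 428 ± 22.0 CPM under TGFβ (SD, n = 3), 3.67-fold higher (log2 fold change 1.87 ± 0.07 SE, the standard error of the fit). Ordered by log2 fold change, *Fxyd6* was number 116 from the top of the 14334 genes tested. The gene lies at chr9:45370185-45396159 on the plus strand, 3509 bases before *Fxyd2*.

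*Fxyd5* encodes dysadherin, which differs from the other FXYD proteins in its long extracellular part and is known for weakening contacts between cells. It had 38.0, 35.3 and 44.7 CPM with vehicle and 64.8, 71.0 and 85.9 CPM under TGFβ. The lowest TGFβ library stood above the highest vehicle library, with a wider scatter in CPM among the TGFβ libraries. Relative to the mean, the SD was 12.2% with vehicle and 14.7% under TGFβ. The mean was 39.3 ± 4.80 CPM with vehicle and 73.9 ± 10.8 CPM under TGFβ (SD, n = 3), 1.88-fold higher (log2 fold change 0.91 ± 0.12 SE). *Fxyd5* lies at chr7:31032722-31042481 on the minus strand and holds the microRNA gene *Mir7050*.

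*Fxyd1* encodes phospholemman, the main FXYD protein of heart and skeletal muscle and a substrate of protein kinases A and C. It was counted at 14.3, 16.0 and 21.9 CPM with vehicle and at 4.97, 6.52 and 8.77 CPM under TGFβ. All TGFβ libraries were below all vehicle libraries, and within each group the libraries differed more, relative to their mean, than those of *Fxyd6*. The mean was 17.4 ± 3.98 CPM with vehicle and 6.75 ± 1.91 CPM under TGFβ (SD, n = 3), 2.58-fold lower (log2 fold change -1.36 ± 0.22 SE). These values rest on 456, 476 and 654 reads with vehicle and on 136, 182 and 250 reads with TGFβ.

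*Fxyd1* (chr7:31051678-31057199, minus strand) and *Fxyd5* are neighbours on chromosome 7, 9196 bases apart, and differed in opposite directions under TGFβ. Between them lies *Fxyd7*, for which 3 reads in all were counted with vehicle and 1 read with TGFβ, too few to be tested. On the other side of *Fxyd1*, 2142 bases away, *Lgi4*, a secreted protein of Schwann cell development, fell from 4.10 ± 0.522 to 2.61 ± 0.445 CPM (SD, n = 3, log2 fold change -0.65 ± 0.16 SE, adjusted p = 0.0159 from edgeR). *Lgi4* was named after its values were seen. Genes beside other members were not past the threshold: *Trp53* beside *Atp1b2* (log2 fold change -0.04, adjusted p = 0.512 from edgeR) and *Tfdp2* beside *Atp1b3* (-0.13, adjusted p = 0.219). *Fxyd3*, the next FXYD gene on that side of *Fxyd1*, overlaps *Lgi4* on the other strand by 2764 bases. *Fxyd3* had no reads with vehicle, which allows up to 3 counts over the group, and 2 reads with TGFβ.

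The promoters of the 3 FXYD genes, which differed in direction under TGFβ, are printed from RefSeq (GRCm38.p6), each from 250 bases before the gene's start to 50 after it, 5′ to 3′ along the gene. Capitals mark CAGAC or its reverse complement GTCTG, the short element that SMAD proteins, the transcription factors downstream of the TGFβ receptors, can bind:
Fxyd1: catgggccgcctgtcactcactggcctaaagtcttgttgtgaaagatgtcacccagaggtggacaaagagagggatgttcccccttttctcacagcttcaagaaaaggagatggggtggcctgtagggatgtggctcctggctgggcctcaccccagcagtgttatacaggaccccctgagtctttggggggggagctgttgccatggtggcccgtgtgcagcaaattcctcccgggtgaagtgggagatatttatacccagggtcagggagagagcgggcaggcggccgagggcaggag
Fxyd5: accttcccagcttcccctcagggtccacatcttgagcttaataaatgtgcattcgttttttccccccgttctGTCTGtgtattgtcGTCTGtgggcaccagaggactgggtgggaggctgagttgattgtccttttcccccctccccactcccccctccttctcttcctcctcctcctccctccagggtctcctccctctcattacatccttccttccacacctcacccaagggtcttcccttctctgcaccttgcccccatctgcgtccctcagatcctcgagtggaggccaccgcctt
Fxyd6: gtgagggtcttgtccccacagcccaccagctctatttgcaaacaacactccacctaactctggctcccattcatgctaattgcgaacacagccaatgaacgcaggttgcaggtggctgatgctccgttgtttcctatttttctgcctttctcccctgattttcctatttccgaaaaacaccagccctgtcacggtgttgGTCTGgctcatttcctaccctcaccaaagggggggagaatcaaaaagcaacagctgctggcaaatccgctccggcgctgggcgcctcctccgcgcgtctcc
They lie at chr7:31054804-31055103 on the minus strand, chr7:31042282-31042581 on the minus strand and chr9:45369935-45370234 on the plus strand, in that order. The RefSeq starts of *Fxyd1* and *Fxyd5* lie inside the GENCODE spans of these genes, which begin farther upstream. Distances given here are counted from the RefSeq start. The promoter of *Fxyd5* holds the element at 178 and 164 bases before the start and that of *Fxyd6* at 51 bases before it, each on the opposite strand, while these letters are not in the window of *Fxyd1*. Of the 32851 promoters of this length used for comparison, 49.6% hold CAGAC on either strand, nearly as many as do not.

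The RefSeq table gives 2 starts for *Atp1b3*, and each window holds CAGAC once, at 192 and 30 bases before the start, while the window of *Atp1b1* does not hold it. TGACTCA, which AP-1 binds, and CATTCC, which TEAD factors bind, occur in none of the promoters of these 5 genes on either strand, against 5.20% and 14.7% of all promoters, nor does the CArG box of serum response factor, against 1.63%. GGGCGG, the GC box of SP1, occurs 2 times in the window of *Atp1b1* and 6 times in 1 of the 2 windows of *Atp1b3*, on either strand, against 35.7% of promoters with at least 1, and none of these matches overlaps another. The promoters of these 2 β subunit genes are also richer in G and C, with 71% in *Atp1b1* and 76% and 74.7% in *Atp1b3*, than those of *Fxyd1* (58.7%), *Fxyd5* (57.3%) and *Fxyd6* (54.3%), where the median of all promoters is 52.7%. A match is a run of letters and was not tested as a site of binding in these cells.

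Among the β subunits, *Atp1b3*, which encodes β3, had 178, 172 and 175 CPM with vehicle and 203, 203 and 221 CPM under TGFβ. The groups were apart, although the difference was small beside those of the FXYD genes. The mean was 175 ± 2.98 CPM with vehicle and 209 ± 10.6 CPM under TGFβ (SD, n = 3), 1.20-fold higher (log2 fold change 0.26 ± 0.05 SE). *Atp1b3* lies at chr9:96332655-96364442 on the minus strand, and 6.20% of the 75-base windows of its longest transcript also occur in transcripts of other genes, so a part of its reads may be shared.

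*Atp1b2* encodes β2, known as the adhesion molecule on glia, which is abundant in brain and low in most other tissues. It had 5.19, 5.09 and 5.93 CPM with vehicle and 1.24, 1.11 and 1.26 CPM under TGFβ. All TGFβ libraries lay well below the vehicle libraries. Its mean was 5.40 ± 0.462 CPM with vehicle and 1.21 ± 0.0830 CPM under TGFβ (SD, n = 3), 4.47-fold lower (log2 fold change -2.16 ± 0.14 SE). The SD under TGFβ is below the counting error at so few reads, so it understates the uncertainty. With DESeq2 the standard error was 0.23. The gene was number 81 from the bottom of the genes tested by log2 fold change, on 165, 151 and 177 reads with vehicle and 34, 31 and 36 reads with TGFβ, and it lies at chr11:69599736-69605942 on the minus strand.

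*Atp1b1* encodes β1, the most widespread β subunit and the main one of heart muscle and kidney. It had 45.8, 23.5 and 32.4 CPM with vehicle and 37.0, 24.4 and 27.4 CPM under TGFβ. The groups overlapped, with the lowest and the highest value both among the vehicle libraries. Its mean was 33.9 ± 11.2 CPM with vehicle and 29.6 ± 6.58 CPM under TGFβ (SD, n = 3). The log2 fold change was -0.20 ± 0.24 SE, with a 95% interval from -0.76 to 0.36. As for the other members, this is a description, and no test is read from the interval. *Atp1b1* lies at chr1:164437109-164458355 on the minus strand and overlaps *Nme7* on the other strand by 617 bases. *Nme7* had 10.7 ± 0.463 CPM with vehicle and 10.3 ± 0.697 CPM under TGFβ (SD, n = 3), and whether strand was used in counting is not given in the sources used here.

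The libraries with the most *Atp1b1* were also those with the most of 2 mesothelial markers. These 2 were singled out from a list of 4 after their values were seen, so their likeness to *Atp1b1* is a description only. *Upk3b*, a uroplakin of the mesothelium that covers the heart, had 53.4, 20.9 and 22.9 CPM with vehicle and 24.6, 11.7 and 12.5 CPM under TGFβ. *Lrrn4*, a membrane protein of the same cells, had 21.5, 1.65 and 5.83 CPM with vehicle and 7.38, 1.29 and 2.03 CPM under TGFβ. In each group the library in the first column was highest for all 3 genes. The 4 mesothelial markers summed to between 23.7 and 77.0 CPM with vehicle and between 14.6 and 34.3 CPM under TGFβ, and none of the 4 was past the threshold, with means of 32.4 CPM (vehicle) and 16.3 CPM (TGFβ) for *Upk3b* (adjusted p = 0.0935 from edgeR) and 9.67 and 3.57 CPM for *Lrrn4* (adjusted p = 0.242). *Msln* and *Krt19* were under 1 CPM in the mean of either group. *Msln* went the other way between the groups, with means of 0.632 CPM (vehicle) and 0.969 CPM (TGFβ, adjusted p = 0.110 from edgeR). Its highest library was the first with TGFβ (1.24 CPM, against 0.786 CPM in the first with vehicle), while *Krt19* was highest in the first with vehicle (1.29 CPM). The part of mesothelial cells in the spread of *Atp1b1* was not tested, and in bulk samples fewer cells of a type cannot be told apart from less RNA per cell.

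**Figure D2:**
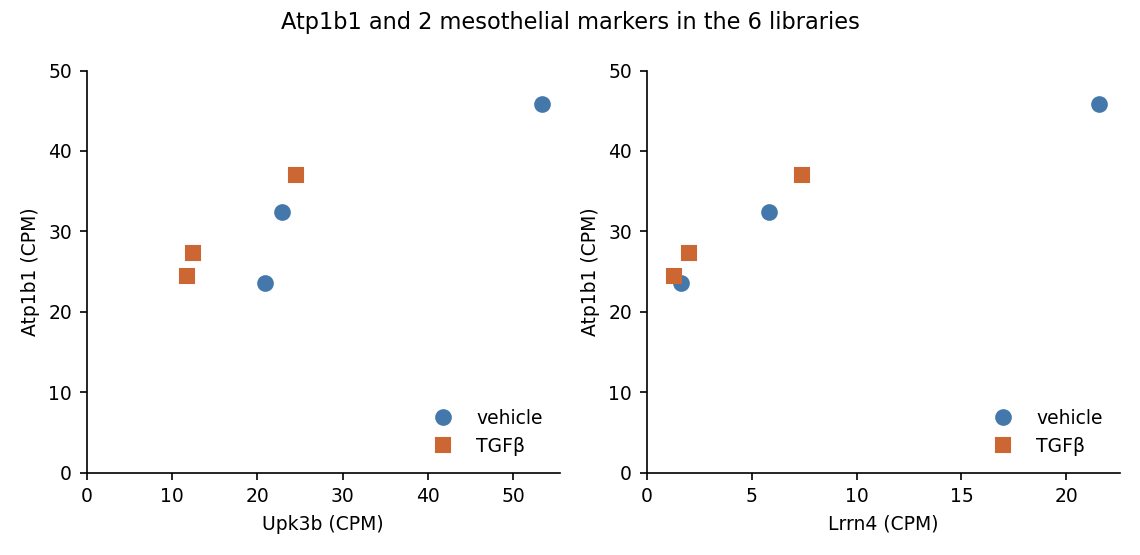
CPM of *Atp1b1* (vertical axis) against CPM of *Upk3b* (left) and *Lrrn4* (right), 1 point per library, with circles for vehicle and squares for TGFβ. The vehicle library with 45.8 CPM of *Atp1b1* is also the highest for both markers, and the TGFβ library with 37.0 CPM is the highest of its group for both.

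To compare the genes with each other, CPM was divided by the length of each gene's exons in kilobases. On this scale, the vehicle level was 73.1 ± 1.25 CPM per kb for *Atp1b3* and 28.5 ± 1.98 for *Fxyd6* (SD, n = 3). *Atp1b1* followed with 11.0 ± 3.64 CPM per kb, *Fxyd5* with 9.38 ± 1.15 and *Fxyd1* with 7.98 ± 1.82, and these neighbours overlapped in their libraries. *Atp1b2* was the lowest with 1.32 ± 0.113 CPM per kb. In the ranking of all genes tested by level per length, *Atp1b3* stood at percentile 95.9 and *Atp1b2* at percentile 26.9.

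With TGFβ the order of the first 2 was exchanged. *Fxyd6* had 104 ± 5.35 CPM per kb and *Atp1b3* 87.4 ± 4.43 (SD, n = 3), without overlap. *Fxyd5* came next with 17.6 ± 2.58 CPM per kb, then *Atp1b1* with 9.60 ± 2.13, *Fxyd1* with 3.09 ± 0.874 and *Atp1b2* with 0.295 ± 0.0203, again without overlap between neighbours. *Fxyd6* moved from percentile 88.9 to percentile 97.3 of all genes tested, *Fxyd5* from 69.1 to 81.8, *Fxyd1* from 65.3 to 43.3 and *Atp1b2* from 26.9 to 10.4. The exchange of *Fxyd6* and *Atp1b3* was also seen with the length of the longest or of the principal transcript. The order of the middle genes was not. With vehicle, per kb of the longest transcript, *Fxyd1* had 26.1 CPM and *Fxyd5* and *Atp1b1* each had 13.1 CPM. With TGFβ on the same scale, *Fxyd1* at 10.1 ± 2.86 and *Atp1b1* at 11.5 ± 2.55 CPM per kb overlapped (SD, n = 3).

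Of the summed level per length of the 3 β transcripts, *Atp1b3* made up 85.7% ± 3.42 with vehicle and 89.8% ± 2.17 with TGFβ (SD, n = 3), and the libraries of the groups overlapped. *Atp1b1* held 12.8% ± 3.50 with vehicle and 9.87% ± 2.16 with TGFβ, also with overlap. *Atp1b2* took 1.55% ± 0.152 with vehicle and 0.303% ± 0.0107 with TGFβ, without overlap. The β transcripts of these cells were thus mostly β3 in both groups.

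The FXYD transcripts were divided otherwise. *Fxyd6* made up 62.2% ± 5.48 of the summed level per length of the 3 with vehicle and 83.5% ± 1.57 with TGFβ (SD, n = 3). *Fxyd1* made up 17.4% ± 3.60 with vehicle and 2.45% ± 0.521 with TGFβ. *Fxyd5* held 20.5% ± 2.12 with vehicle and 14.1% ± 1.05 with TGFβ, so that its share was lower while its own level was higher. None of the 3 shares overlapped between the groups. Their size depends on the length used: per kb of the longest transcript, *Fxyd1* made up 29.3% with vehicle and 4.63% with TGFβ, and with vehicle it was then above *Fxyd5* at 14.8%.

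**Figure D3:**
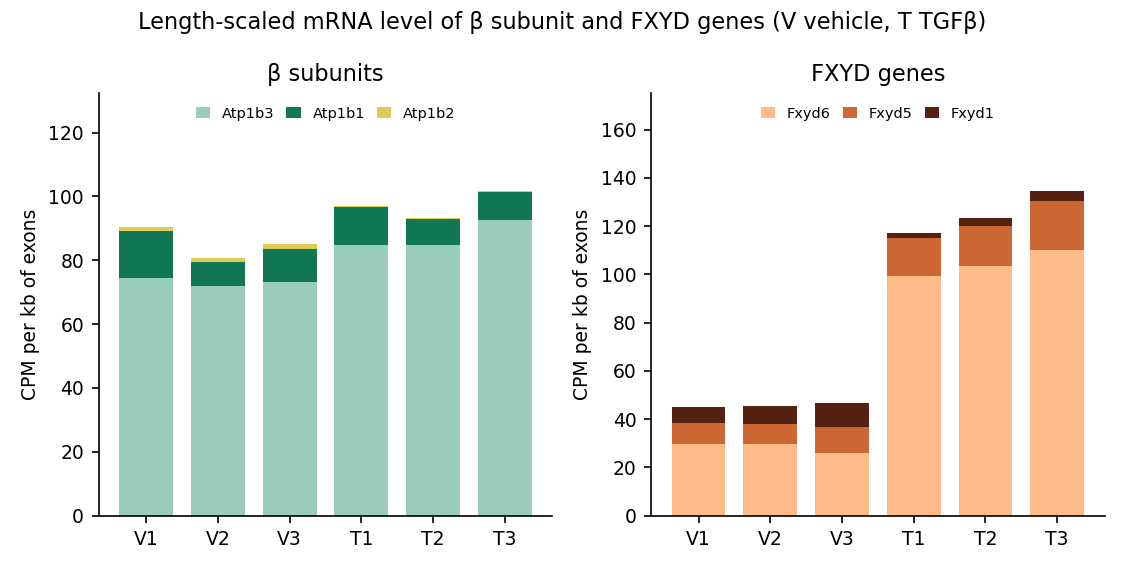
Level per kilobase of exons in each library, stacked over the β subunits (left) and the FXYD genes (right), for the 3 vehicle libraries (V1 to V3) and the 3 TGFβ libraries (T1 to T3) in the order of the table's columns. The β sums lie between 80.7 and 102 CPM per kb over all libraries, and the FXYD sums lie between 45.1 and 46.9 with vehicle and between 117 and 135 with TGFβ.

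The summed level per length of the 3 β transcripts was 85.4 ± 4.89 CPM per kb with vehicle and 97.3 ± 4.31 CPM per kb under TGFβ (SD, n = 3). That of the 3 FXYD transcripts was 45.8 ± 0.915 CPM per kb with vehicle and 125 ± 8.80 CPM per kb under TGFβ. Neither sum overlapped between the groups, and the FXYD sum, which was below the β sum in every vehicle library, was above it in every TGFβ library. This crossing depends on the length used, since per kb of the principal transcript the mean FXYD sum was above the mean β sum with vehicle too, at 127 against 103 CPM per kb. The FXYD sum with TGFβ was 2.73 times that with vehicle, and 2.44 and 2.47 times with the length of the longest and of the principal transcript. These are sums of transcripts and say nothing of the number of protein subunits.

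Of the FXYD genes outside the 6, *Fxyd2*, the γ subunit of the kidney pump, was the only listed one with enough counts to be tested. It had 1.40 CPM with vehicle and 1.31 CPM under TGFβ (log2 fold change -0.10 ± 0.23 SE, adjusted p = 0.765 from edgeR). The H,K-ATPase genes *Atp4a* and *Atp12a* had at most 4 reads in a group. *Atp1b4*, *Fxyd4* and *Atp4b* were not among the 25140 genes of the deposited table.

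**Figure D4:**
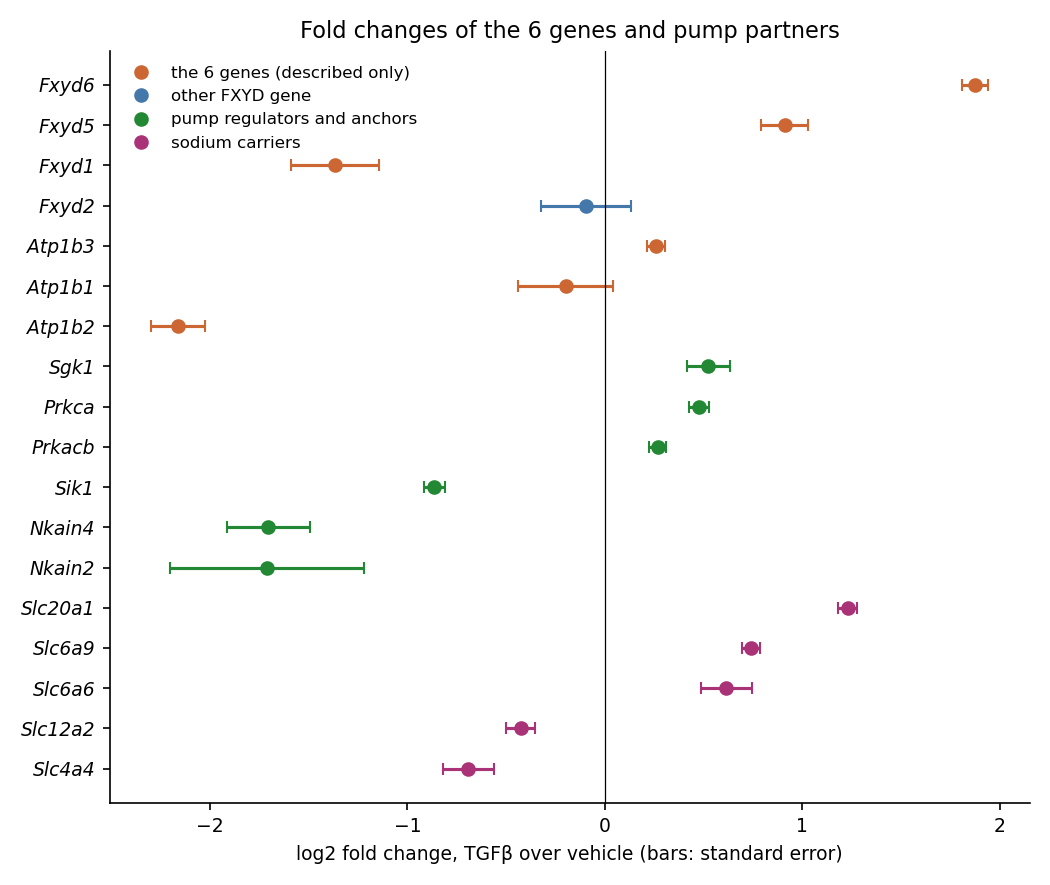
Log2 ratio of TGFβ to vehicle expression for the 6 genes (orange), *Fxyd2* (blue), pump regulators and anchors (green) and sodium carriers (purple), with bars for the standard error. Among the FXYD and β subunit genes, *Fxyd6* (1.87) and *Fxyd5* (0.91) lie farthest to the right and *Atp1b2* (-2.16) and *Fxyd1* (-1.36) farthest to the left.

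Proteins that act on the pump or hold it in place were taken as a list of 23 genes (kinases, phosphatases, ubiquitin ligase, cytoskeletal anchors and the NKAIN proteins, which bind β1). Of 22 tested, 3 rose and 9 fell (54.5% past the threshold, beside 40.7% of all genes), with a median log2 fold change of 0.04 against a median of -0.0013 over all genes tested. This list and that of the sodium carriers below were chosen with earlier results of these data known. Nothing is therefore read from the share of either list. The kinases with the largest rises were *Sgk1*, which promotes sodium transport (log2 fold change 0.52 ± 0.11 SE, adjusted p = 0.00722 from edgeR), and *Prkca*, a protein kinase C that phosphorylates phospholemman (0.48, SE 0.05, adjusted p = 0.000269). *Prkacb*, a catalytic subunit of protein kinase A, which acts on the same protein, rose by 0.27 on the log2 scale (SE 0.04, adjusted p = 0.00252). The other kinases of these 2 families in the list went the other way, named here after their values were seen. The log2 fold change was -0.17 for *Prkaca*, the other catalytic subunit of protein kinase A (SE 0.05, adjusted p = 0.0216), and -0.47 for *Prkce*, a further protein kinase C (SE 0.06, adjusted p = 0.000631).

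Of the members of this list that fell, *Nkain4* had 9.90, 6.41 and 6.81 CPM with vehicle and 2.89, 2.11 and 2.10 CPM under TGFβ. Its groups did not overlap, and the log2 fold change was -1.70 (SE 0.21, adjusted p = 0.000628 from edgeR). *Nkain2* had a log2 fold change of -1.71 (SE 0.49, adjusted p = 0.0255), but 1 vehicle library lay among the TGFβ libraries, and the adjusted p was 0.0748 with limma-voom and between 0.0676 and 0.0876 without either of the first 2 vehicle libraries or without either of 2 TGFβ libraries. The values of *Nkain2* with TGFβ rest on only 12, 20 and 13 reads. *Sik1*, the salt-inducible kinase that activates the pump when cell sodium rises, fell by 0.86 on the log2 scale (SE 0.05, adjusted p = 2.62e-05).

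Carriers that use the sodium gradient formed a list of 27 genes, of which 25 were listed and 16 tested. Of these, 5 rose and 3 fell (50%, beside 40.7% of all genes), with a median log2 fold change of 0.16. *Slc20a1*, a sodium-phosphate carrier, rose from 53.5 ± 0.885 to 126 ± 6.93 CPM (SD, n = 3, log2 fold change 1.23 ± 0.05 SE, adjusted p = 5.49e-06 from edgeR). *Slc6a9*, the glycine carrier GLYT1, rose by 0.74 on the log2 scale (SE 0.05, adjusted p = 2.62e-05), and *Slc6a6*, the taurine carrier, by 0.61 (SE 0.13, adjusted p = 0.00729). In the other direction, the log2 fold change was -0.69 for *Slc4a4*, a sodium-bicarbonate carrier (SE 0.13, adjusted p = 0.00411), and -0.43 for *Slc12a2*, the sodium-potassium-chloride carrier NKCC1 (SE 0.08, adjusted p = 0.00316).

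For each of the 6 genes, the 2 genes with the most similar profile were taken by Pearson's r of log2 CPM over the 6 libraries among 10368 genes, as a description. The libraries fall into 2 groups and share their depth scaling. A gene that separates the groups with a like pattern therefore has a high r, whatever the size of its change. For *Fxyd1* these were *Lum* (lumican, r = 0.999) and *Grn* (progranulin, 0.998), for *Fxyd5* *Atp6v1e1* (0.999) and *Pfdn6* (0.997), and for *Fxyd6* *Nars* (0.999) and *Zdhhc16* (0.999). *Atp1b2* was most like *Eef1a2* (0.999) and *Ptpn1* (0.999), and *Atp1b3* most like *Csnk2b* (0.998) and *Ripk3* (0.998). *Atp1b1*, whose groups overlap, was most like the mesothelial marker *Lrrn4* (0.986) and *Gata6* (0.979). The match with *Lrrn4* rests on the same values as those given with the mesothelial markers and is not a separate observation. The log2 fold change of a match can differ from that of its gene or be near it. It was 0.15 for *Atp6v1e1* against 0.91 for *Fxyd5*, and 0.26 for both *Csnk2b* and *Atp1b3*.

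Marker genes of fibroblasts and of other cell types were also read. No list was made to tell cardiac from embryonic fibroblasts, so that difference between the labels and the study's main text was not checked. The 8 fibroblast markers summed to between 34633 and 39766 CPM with vehicle and between 38752 and 42293 CPM under TGFβ. Past the threshold, 6 of them fell and none rose, and all 5 myofibroblast markers rose. Of all genes tested, 20.1% were past it with lower and 20.5% with higher expression. *Pdgfra* is among the 6, and *Acta2* and *Postn* are among the 5, so these counts are not a second check of the treatment. Most of the fibroblast sum was *Col1a1* (means of 19992 CPM with vehicle and 23484 CPM under TGFβ) and *Col1a2* (13657 and 14967 CPM), neither past the threshold. The sum is thus mainly a measure of these collagens. Cardiomyocyte markers are of interest for *Fxyd1*, abundant in heart muscle. Of the 8, *Myh6*, *Actn2*, *Myl2*, *Myl3* and *Ryr2* were under 0.3 CPM in the mean of either group and were not tested. The 3 that were tested were not past the threshold. With vehicle and TGFβ in turn, the means were 0.338 and 0.288 CPM for *Tnni3* and 0.567 and 0.628 CPM for *Nppa*. For *Tnnt2* they were 46.7 and 34.0 CPM (adjusted p = 0.0822 from edgeR). The list summed to between 38.6 and 59.7 CPM with vehicle and between 27.4 and 40.6 CPM under TGFβ, nearly all of it *Tnnt2*. Glial markers, of interest for *Atp1b2*, summed to between 10.4 and 13.7 CPM with vehicle and between 11.6 and 13.8 CPM under TGFβ, with none past the threshold. The 6 markers of smooth muscle and pericytes summed to between 250 and 284 CPM with vehicle and between 135 and 165 CPM under TGFβ, where *Notch3* fell from 207 to 57.3 CPM, *Cspg4* rose from 19.5 to 53.3 CPM and the other 4 were not past the threshold. No endothelial or leukocyte marker was past the threshold, with sums of 351 to 579 CPM and 207 to 340 CPM over the 6 libraries. The part of these other cells in the values of *Fxyd1* and *Atp1b2* was not tested.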

How the data were processed

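RNA was sequenced from 3 vehicle and 3 TGFβ cultures. The authors made stranded poly(A) libraries, read 75 bases from one end, mapped the reads to mm10 and ran DESeq2. The aligner, the counting tool, the annotation and the use of strand are not given in the sources used here. The deposited table holds raw whole-number counts per gene and library, with no normalization. Its columns of the authors' own comparison (fold change, p-value and adjusted p) were not used. Headers of the count columns give the group alone, so libraries are listed in column order.

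Counts were analysed with edgeR 4.0.16 in R 4.3.3 (TMM factors, filterByExpr, quasi-likelihood test, Benjamini-Hochberg adjustment over the 14334 genes kept, threshold 0.05). The standard error is the fold change over the square root of F. Libraries held 27851677 to 31072338 counts, and replicates differed beyond counting noise (chi-square per gene 7.95 to 27.1). Table IDs matched GENCODE M21 in 25086 cases, which gave exon lengths and coordinates. RefSeq promoters matched 5 of the 6 genes (not *Atp1b2*).

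The 6 genes and all lists were chosen with earlier results of these data known. Named besides them were other FXYD and pump family genes, the 3 largest called changes in each direction of 2 lists (mean of at least 1 CPM), the 2 most similar genes of each (at least 5 CPM), *Acta2*, *Postn* and *Pdgfra*, and neighbours, *Lgi4* among them, *Prkaca*, *Prkce* and markers chosen after values were seen. Results for some genes under these rules were left out. The fit was tested on simulated data. Alternatives were DESeq2 1.42.0, limma-voom (limma 3.58.1), other scalings and filters, an adjusted p of 0.01, each library left out in turn, the longest transcript and, added after seeing the data, the principal transcript.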

Additional observations from a re-analysis of the deposited data

How the results depend on the processing

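The 5 genes of the 6 with separate groups kept their direction in every alternative fit. Since their groups do not overlap, leaving out 1 library could not reverse the direction, and only the size could change. The log2 fold change of these genes lay between 1.82 and 1.91 for *Fxyd6*, 0.78 and 1.01 for *Fxyd5*, -1.61 and -1.17 for *Fxyd1*, -2.20 and -2.09 for *Atp1b2* and 0.21 and 0.28 for *Atp1b3*. That of *Atp1b1* ranged from -0.40 to 0.08 as single libraries were left out. For *Fxyd2*, near 0, leaving out 1 library gave -0.33 to 0.085, so its direction is not set. *Nkain2* lost its call in 5 of the alternatives, and the cause was not tested. It was also not kept by the filter of at least 1 CPM in 3 libraries. At an adjusted p of 0.01, 3595 genes were called in place of 5828. Another scaling moved the median of all genes by at most 0.021 (log2).

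The choice of transcript length changed the FXYD shares, while the β share of *Atp1b3* hardly moved. With the longest and the principal transcript, *Atp1b3* took 85.9% and 85.5% of the β sum with vehicle. With TGFβ it took 89.9% and 89.8%. With the longest transcript, *Fxyd1*, *Fxyd5* and *Fxyd6* took 29.3%, 14.8% and 56.0% of the FXYD sum with vehicle, and *Fxyd1* and *Fxyd5* took 4.63% and 11.4% with TGFβ. With the principal transcript these were 22.0%, 26.4% and 51.6% with vehicle and 3.44%, 20.0% and 76.5% with TGFβ. The β share of *Atp1b2* was 1.86% (vehicle, principal) and 0.276% and 0.363% (TGFβ, longest and principal).

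No paired analysis was possible because the count columns carry no replicate number. Among the 6 genes, counting error relative to the level is largest for *Atp1b2* with TGFβ, at 31 to 36 reads per library. The SDs printed for its level and its β share with TGFβ lie below that error.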
